A study of Rattus norvegicus with 25 samples.

Results

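The comparison was made between 2 stable cell lines that carry the same construct, human SAR1B with a FLAG tag, in the rat hepatoma line McArdle-RH7777. All arrays whose titles name the first or the second Sar1B line were taken, 4 per line, which makes 8 of the 25 arrays of the series. The whole series covered 7 lines, and the other 5 were 2 control lines, 2 Sar1B:H79G lines, which carry a mutant locked in the GTP-bound form, and 1 Sar1A line. Their line means are given only as reference points. Both Sar1B lines also carried the tetracycline repressor, grew in 10 µg/ml Blasticidin and 250 µg/ml Zeocin, and received 1 µg/ml tetracycline for 24 h before RNA was extracted. By the methods, each line was grown from a picked clone and the lines were chosen for like amounts of the recombinant protein, so that a line is 1 clone. The arrays of a line are technical replicates. All p-values below therefore set the difference between the clones against the spread between arrays, and say nothing of the spread between cultures or between further clones. The array numbers in the titles run on within line 1 and then within line 2, so that array order and line cannot be told apart.

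Sar1 proteins are small GTPases that start the assembly of COPII coats, which carry newly made proteins and lipoproteins out of the endoplasmic reticulum (ER). McArdle-RH7777 cells keep part of the hepatocyte program and secrete apolipoprotein B. A stable line descends from a single transfected cell, and lines made with the same plasmid are often used side by side so that a trait of the construct can be told from a trait of a clone. Interferon-stimulated genes, a group described below, encode antiviral and signalling proteins that cells switch on together after sensing interferon.

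RNA was hybridized to Affymetrix Rat Genome 230 2.0 arrays, and the values are log2 signals per probe set without detection calls, so that a signal could not be set against its background. Median signals lay between 8.13 and 8.16 on the 8 arrays. Pearson correlations across probe sets were 0.992 to 0.998 within a line (12 pairs of arrays) and 0.989 to 0.993 between the lines (16 pairs). The array called line 2 replicate 2 stood apart, with a median correlation of 0.993 to its own line against at least 0.995 for every other array, and so did line 1 replicate 4 to a lesser degree. The 5′ minus 3′ signal of the spike-in controls, a sign of RNA and labelling quality, was -0.79 ± 0.04 (SD, n = 4 arrays) in line 1 and -0.76 ± 0.03 (SD, n = 4 arrays) in line 2, a difference within the spread between arrays (exact permutation test, two-sided, p = 0.29, where 0.029 is the smallest p that 4 against 4 arrays allow). The same measure of β-actin and Gapdh gave p = 0.83 and p = 0.26 by the exact permutation test (adjusted over the 3 controls, 0.43, 0.83 and 0.43).

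In all, 444 of 31042 probe sets differed between the Sar1B lines, which is 1.43% of those tested, at a Benjamini-Hochberg adjusted p under 0.05 by limma and a fold of at least 1.5, a pair of conditions that defines a call throughout. Of these, 280 (0.902%) were higher in line 2 and 164 (0.528%) were higher in line 1. At least 2-fold differences were found for 74 probe sets (0.238%), of which 36 were higher in line 2 and 38 in line 1. With no minimum fold, 3767 probe sets (12.1%) passed, so that most differences that exceeded the array spread were small. Of the 3767, 2702 were higher in line 2 and 1065 in line 1. Counted by genes as below, 2112 of 14217 passed the adjusted p alone, the share to set beside such counts on a list. Without line 2 replicate 2 the number of calls was 535. For 441 of the 444 called probe sets the arrays of the lines did not overlap. The genes named below for the largest differences were chosen among genes without overlap, so that this trait was set by the choice. Counted by genes, each represented by its brightest probe set, 273 of 14217 were called (1.92%), 154 (1.08%) higher in line 2 and 119 (0.837%) higher in line 1. By the same fit the 2 Sar1B:H79G lines, each with 4 arrays, differed at 419 probe sets (1.35%), and the 2 control lines, with 2 and 3 arrays and thus fewer than the other pairs, at 120 (0.387%). Of the calls of the Sar1B pair, 60 were also calls of the Sar1B:H79G pair, which is 13.5% of the former list and 14.3% of the latter.

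**Figure D1:**
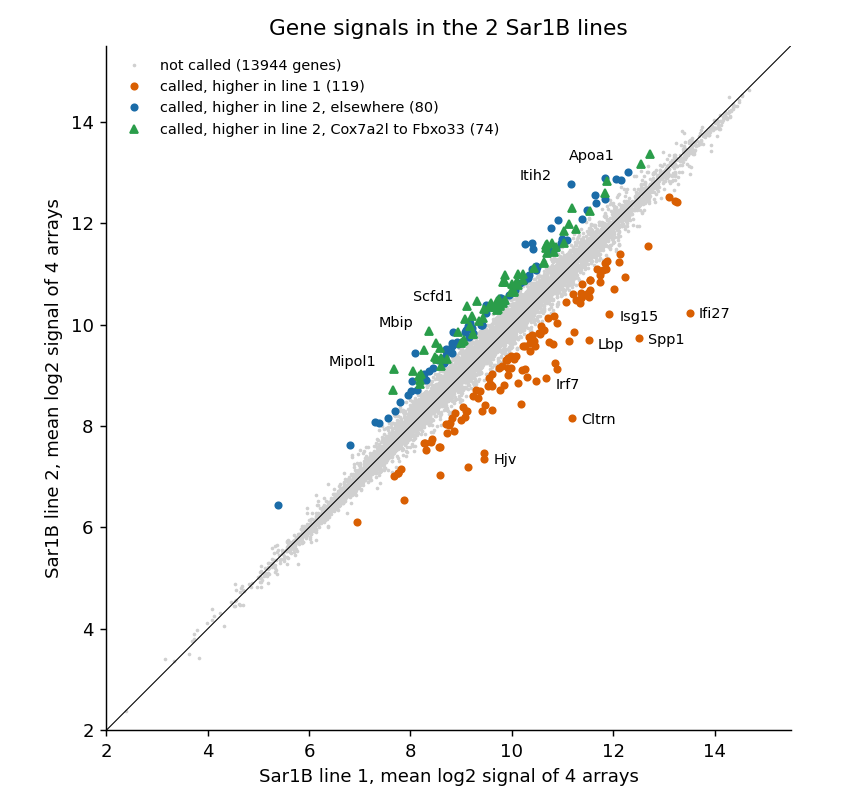
Mean log2 signal of 14217 genes in Sar1B line 1 (horizontal axis) and Sar1B line 2 (vertical axis), each over 4 arrays, with the line of equal signals. Called genes are coloured by direction, and triangles mark the 74 that lie between Cox7a2l and Fbxo33 in gene order. Ifi27, Cltrn, Spp1 and Hjv lie farthest below the line of equal signals.

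The line means of the other 5 lines showed which Sar1B line stood apart. Among the 119 genes higher in line 1, the median of the other 5 lines was nearer to line 2 for 93 and nearer to line 1 for 26. For 54 of them line 1 lay outside the range of the other lines while line 2 lay within it, and for 18 the reverse held. Among the 154 genes higher in line 2, the other lines were nearer to line 1 for 83 and nearer to line 2 for 71. Line 2 alone lay outside their range for 69 of these genes and line 1 alone for 32. The control arrays carry numbers of another array series in the labels, so that for them line and array series cannot be told apart.

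Genes of the interferon response were higher in line 1. Of the 27 measured genes on a list of interferon response and antigen presentation, 8 were higher in line 1 and 0 in line 2, whereas 0.837% and 1.08% of all genes were, and the median difference of the list was -0.24 (line 2 minus line 1, log2 scale) against 0.0017 for all genes. Under every alternative with a minimum fold, 7 or 8 members were called. Without a minimum fold 14 members were higher in line 1 and 1 in line 2.

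Ifi27, an interferon-induced protein of mitochondria, had log2 signals of 13.54, 13.37, 13.64 and 13.50 on the line 1 arrays and of 10.32, 9.96, 10.41 and 10.27 on the line 2 arrays. All arrays of line 1 lay above all arrays of line 2, and the difference of -3.27 (standard error 0.09, adjusted p = 3.9e-11, limma) was the largest of all called genes, 9.67-fold on the linear scale. The other 5 lines were spread from 8.88 (Sar1A line) to 12.98 (Sar1B:H79G line 1), so that Ifi27 varied widely among the lines. Its paralog Ifi27l2b was also higher in line 1 (difference -0.83, adjusted p = 1.6e-05 by limma), and signals of such close relatives on an array may be shared.

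Irf7, the transcription factor that amplifies the type I interferon response, gave 10.59, 10.76, 10.62 and 10.74 in line 1 and 8.95, 8.87, 9.01 and 8.99 in line 2. The groups did not overlap (difference -1.72, standard error 0.06, adjusted p = 4.4e-10, limma), and the other 5 lines, at 8.28 to 9.16, lay around line 2. Mx2, a dynamin-like antiviral GTPase, followed the same pattern with 10.05, 10.35, 10.20 and 10.16 in line 1 and 8.46, 8.42, 8.45 and 8.38 in line 2 (other lines 8.07 to 8.49). Isg15, a ubiquitin-like modifier, had 11.86, 11.95, 11.94 and 11.88 in line 1 and 10.31, 9.97, 10.26 and 10.29 in line 2. Here the array that stands apart, line 2 replicate 2, was the lowest, and the other lines reached from 9.56 to 10.62. Oasl, an antiviral protein related to oligoadenylate synthetases, was higher in line 1 by 1.45 on the log2 scale (line 2 minus line 1: -1.45, adjusted p = 2.9e-07, limma).

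The 3 further called members differed less. Ifit3, which binds signalling proteins of RNA sensing, had a difference of -0.97 (line 2 minus line 1), Irf9, the DNA-binding part of the complex that interferon receptors activate, had -0.77, and B2m, the light chain of MHC class I, had -0.59. For all 8 called members the median of the other 5 lines was nearer to line 2, and for 7 of them line 1 alone lay outside the range of the other lines. Members that were not called included Stat2 (-0.48), Ifi44 (-0.45), Ifit2 (-0.28), Psmb8 (-0.07) and Tap1 (-0.09).

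Other genes known as interferon targets that were not on the list are given here as examples. Rtp4, Lgals9 and Usp18 were named for the size of their difference and the rest were picked after they were seen to be higher in line 1, so that their shared direction was set by the choice. Rtp4, a receptor chaperone, had 8.99, 8.87, 8.88 and 9.77 in line 1 and 7.12, 7.12, 7.32 and 7.21 in line 2. Line 1 replicate 4 was thus far above its line (difference -1.93, standard error 0.15, adjusted p = 1.8e-06, limma). The groups did not overlap, which was a condition for naming this gene. Lgals9, a galectin, differed by -1.77 and Usp18, which removes Isg15 from its targets, by -1.58. The differences were smaller for Irgm2 (-0.82), Parp9 (-0.82), its partner Dtx3l (-0.81), Ube2l6 (-0.71), the conjugating enzyme of Isg15, Isg20 (-0.71) and Parp12 (-0.65).

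**Figure D2:**
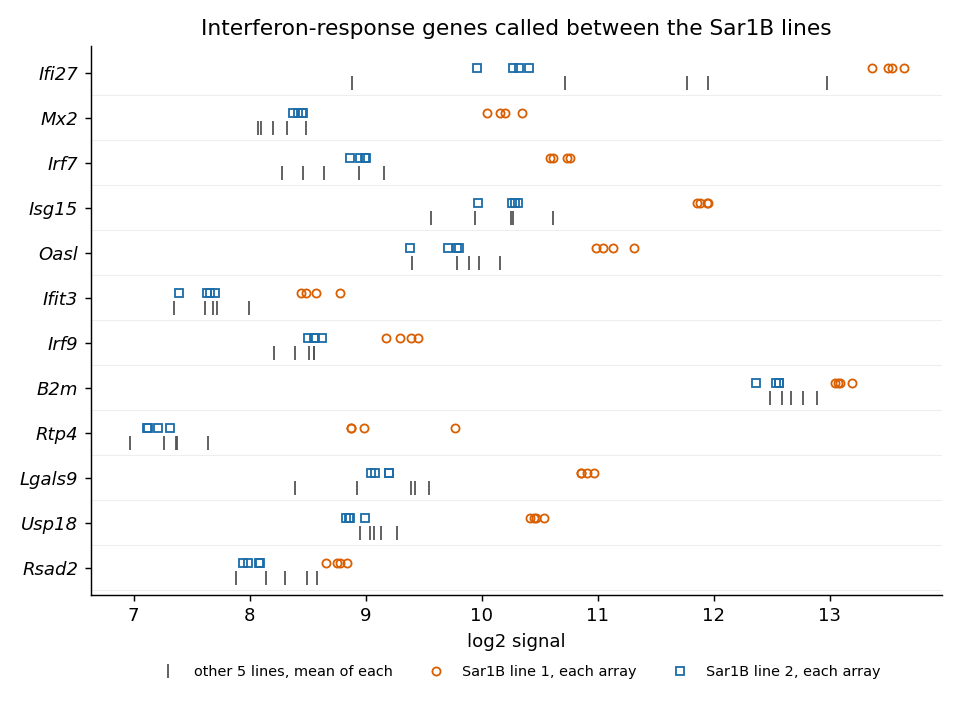
Log2 signal (horizontal axis) of the 8 called genes of the interferon list and of Rtp4, Lgals9, Usp18 and Rsad2, with a circle for each array of Sar1B line 1, a square for each array of line 2 and a tick for the mean of each of the other 5 lines. In each gene the circles lie to the right of the squares, at higher signals, and the ticks lie mostly around the squares, with Ifi27 spread from 8.88 to 12.98.

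The promoters of these genes were read as a feature that the comparison had not used. Interferon-activated factors of the IRF family are known to bind repeats of GAAA, so the letters GAAANNGAAA were searched on both strands (TTTCNNTTTC on the other) in RefSeq promoters of 300 bases, 250 before and 50 after the start of a gene. Of 11700 genes with a promoter in the table (build GRCr8), 2.99% held the motif. Among the genes higher in line 1 it was held by 13 of 99 (13.1%), and among those higher in line 2 by 2 of 134 (1.49%). Of the 8 called list members, Ifi27, Irf7, Ifit3 and B2m held it, Irf9 and Oasl did not, and Isg15 and Mx2 were not matched to a promoter. Ifi27 held it at 2 places. A match is a description of these letters and shows no binding. The promoters of Ifi27, Irf7, Lgals9, Ifit3 and Rsad2 are shown, since they carry the motif and belong to genes higher in line 1. They are written 5′ to 3′ on the strand of the gene, with the motif in capitals.
Ifi27, chr6:128355062-128355361, plus strand: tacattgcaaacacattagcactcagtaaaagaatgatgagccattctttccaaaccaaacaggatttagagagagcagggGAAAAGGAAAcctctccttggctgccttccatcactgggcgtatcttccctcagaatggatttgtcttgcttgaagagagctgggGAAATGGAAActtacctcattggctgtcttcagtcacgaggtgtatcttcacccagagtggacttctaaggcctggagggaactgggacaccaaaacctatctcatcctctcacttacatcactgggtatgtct
Irf7, chr1:205799974-205800273, minus strand: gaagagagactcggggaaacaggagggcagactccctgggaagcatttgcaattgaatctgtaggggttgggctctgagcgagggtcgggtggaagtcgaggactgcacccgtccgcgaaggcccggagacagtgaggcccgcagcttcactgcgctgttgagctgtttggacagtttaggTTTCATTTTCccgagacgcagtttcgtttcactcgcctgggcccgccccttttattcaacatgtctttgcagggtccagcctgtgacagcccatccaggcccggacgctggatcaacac
Lgals9, chr10:64428021-64428320, minus strand: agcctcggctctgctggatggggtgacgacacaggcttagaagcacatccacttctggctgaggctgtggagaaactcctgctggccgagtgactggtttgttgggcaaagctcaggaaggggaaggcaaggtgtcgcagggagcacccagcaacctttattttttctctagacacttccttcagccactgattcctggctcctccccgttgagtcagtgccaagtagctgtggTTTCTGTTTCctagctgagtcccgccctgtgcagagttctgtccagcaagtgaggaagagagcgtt
Ifit3, chr1:241527076-241527375, plus strand: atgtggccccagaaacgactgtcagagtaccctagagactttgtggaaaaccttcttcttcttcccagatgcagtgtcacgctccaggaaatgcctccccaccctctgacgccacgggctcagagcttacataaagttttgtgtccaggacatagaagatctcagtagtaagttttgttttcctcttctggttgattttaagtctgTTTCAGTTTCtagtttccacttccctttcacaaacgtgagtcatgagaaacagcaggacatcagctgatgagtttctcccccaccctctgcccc
Rsad2, chr6:48788071-48788370, minus strand: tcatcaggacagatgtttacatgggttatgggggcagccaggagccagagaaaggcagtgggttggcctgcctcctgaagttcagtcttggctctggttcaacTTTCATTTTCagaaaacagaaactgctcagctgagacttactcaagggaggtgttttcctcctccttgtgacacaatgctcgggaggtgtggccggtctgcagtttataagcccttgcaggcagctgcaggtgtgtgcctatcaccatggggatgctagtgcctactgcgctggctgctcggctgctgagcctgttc

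The genes higher in line 1 also had promoters with fewer CpG sites, with a median ratio of observed to expected CpG of 0.466 (quartiles 0.209 and 0.798) against 0.724 (0.439 and 0.889) for all genes. For genes higher in line 2 the median was 0.732 (0.549 and 0.896). Many of these lie in 1 run of neighbouring genes, described below. For the 67 outside it the median was 0.656 (0.385 and 0.862), also below that of all genes.

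Outside the interferon response, the genes most strongly higher in line 1 were of several kinds. Cltrn, a transmembrane protein related to the renin-angiotensin system that takes part in amino acid transport, had 11.06, 11.11, 11.18 and 11.43 in line 1 and 8.23, 7.91, 8.15 and 8.34 in line 2. The arrays did not overlap (difference -3.04, standard error 0.10, adjusted p = 1.9e-10, limma), and the other lines lay between 7.12 and 9.52, so that line 1 stood apart. Hjv, the co-receptor through which iron status controls hepcidin, showed the same order of lines, at 9.46 ± 0.11 (SD, n = 4 arrays) in line 1, 7.36 ± 0.09 in line 2 and 7.05 to 7.43 in the other 5. Spp1, the secreted matrix protein osteopontin, gave 12.49, 12.40, 12.63 and 12.49 in line 1 and 9.82, 9.70, 9.72 and 9.70 in line 2. For Spp1 it was line 2 that stood apart, since the other lines reached from 11.16 to 12.61 (difference -2.77, standard error 0.06, adjusted p = 6.5e-12, limma).

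Hamp, which encodes the iron-regulating hormone hepcidin, was higher in line 1 (8.86 ± 0.10 against 7.91 ± 0.08, SD, n = 4 arrays each), as was the iron exporter Slc40a1 (11.55 ± 0.06 against 10.68 ± 0.04). Their places among the other lines differed, with Hamp at 8.02 to 8.94 and Slc40a1 at 10.03 to 11.83 there, so that line 1 lay within their range for both genes, and line 2 lay just below it for Hamp. On the list of 16 metallothionein and metal handling genes, Slc40a1 was the 1 called higher in line 1, and 0 were called higher in line 2 by limma. That is 6.25% of the list, beside 1.92% of all genes, and the median difference was -0.06. With the adjusted p alone, 3 of the 16 were higher in line 1 and 1 in line 2, and 5 had an unadjusted p under 0.05.

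Serping1, the inhibitor of the first complement component, gave 9.30, 9.35, 9.48 and 9.65 in line 1 and 7.69, 7.08, 7.57 and 7.55 in line 2 (difference -1.98, standard error 0.11, adjusted p = 1.0e-07, limma). Line 2 replicate 2 was again the lowest array, and the other 5 lines, at 7.20 to 7.82, lay around line 2. C3, the central complement component, differed by -1.32, and C1s, the protease that Serping1 inhibits, which was picked after its values were seen, by -1.33. Lbp, which binds bacterial lipopolysaccharide, had 11.51, 11.48, 11.41 and 11.68 in line 1 and 9.67, 9.44, 9.81 and 9.90 in line 2 (difference -1.81, adjusted p = 2.4e-08, limma), while the other lines reached from 6.89 to 10.56. On the list of 20 acute-phase genes, 3 were called higher in line 1 (Lbp, Hamp and Lcn2) and 0 in line 2 by limma. That is 15% of the list, beside 1.92% of all genes, with a median difference of -0.05 over the list. With the adjusted p alone, 6 of the 20 were higher in line 1 and 2 in line 2, and 9 had an unadjusted p under 0.05. Lcn2, a siderophore-binding protein, had a difference of -0.60 and lost its call without line 2 replicate 2.

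Among 42 liver plasma proteins, 3 were higher in line 1 and 1 in line 2, which is 9.52%, beside 1.92% of all genes. Itih2, a heavy chain of the inter-alpha-trypsin inhibitor, gave 11.02, 11.21, 11.20 and 11.21 in line 1 and 12.83, 12.65, 12.87 and 12.79 in line 2. This was the largest difference of a gene higher in line 2 that met the conditions for naming (1.62, standard error 0.07, adjusted p = 2.2e-09, limma), with line 1 below all other lines (11.89 to 12.91). Pzp, a protease inhibitor of plasma that was not on that list, was higher in line 2 by 1.12 and lay above all other lines there (11.90 against 10.02 to 11.40). Antithrombin, encoded by Serpinc1, was higher in line 1 (difference -1.08), at 10.73 ± 0.13 against 9.66 ± 0.22 (SD, n = 4 arrays each).

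Genes of apolipoprotein B and its assembly were the next question, since the lines were made to study its secretion. Apob gave 11.94, 11.77, 11.79 and 11.85 in line 1 and 12.69, 12.35, 12.67 and 12.63 in line 2. All line 2 arrays were higher, by 0.75 (standard error 0.08, adjusted p = 1.9e-05, limma), and line 2 lay above all 5 other lines, which reached from 10.07 in Sar1B:H79G line 1 to 12.13 in control line 1. A second, dimmer Apob probe set did not show the difference (0.09, adjusted p = 0.49, limma), and with the mean of both the call was lost. Mttp, which loads lipid onto apolipoprotein B, was at 11.20 ± 0.09 (SD, n = 4 arrays) in line 1 and 11.02 ± 0.13 (SD, n = 4 arrays) in line 2. These arrays overlapped and the difference did not pass the test (-0.17, standard error 0.07, adjusted p = 0.16, limma). Both Sar1B lines lay above the other lines for Mttp, which reached from 8.31 to 10.77.

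Of 21 genes on the list of apolipoproteins and lipoprotein assembly, 2 were higher in each line. Together these are 19% of the list, beside 1.92% of all genes. Apoa1, the main protein of high density lipoprotein, had 11.76, 11.79, 11.99 and 11.81 in line 1 and 12.96, 12.71, 13.03 and 12.91 in line 2 (difference 1.06, standard error 0.08, adjusted p = 6.6e-07, limma). The other lines lay between both Sar1B lines, at 12.09 to 12.50. Hepatic lipase (Lipc) and Apoc3, which slows the clearance of triglyceride-rich particles, were higher in line 1, with differences of -0.69 and -0.61. Apoe had a difference of 0.39 and was not called.

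For the targeted pathway itself, rat Sar1b was at 11.28, 11.29, 11.29 and 11.39 in line 1 and at 11.48, 11.26, 11.42 and 11.47 in line 2. The arrays overlapped, and the difference of 0.09 did not pass the test (standard error 0.06, adjusted p = 0.43, limma). The other lines were at 11.52 and 11.39 (controls), 11.24 and 11.29 (Sar1B:H79G) and 11.19 (Sar1A), so that both Sar1B lines lay within their range. No line that carries SAR1B lay above control line 1. Whether this rat probe set also measures the human SAR1B transcript was not tested, so it does not check the amount of transgene. Sar1a, the other rat isoform, was at 12.05 ± 0.03 (SD, n = 4 arrays) in line 1 and 11.46 ± 0.09 (SD, n = 4 arrays) in line 2. Every line 1 array was higher, and the difference of -0.58 (adjusted p = 1.7e-05, limma) fell just short of the 0.585 that 1.5-fold requires. It was called under 7 of the alternatives, among them quantile and median scaling. A second Sar1a probe set, with a difference of -0.60, was called. On the first Sar1a probe set the control lines were at 11.47 and 11.31, near line 2. The Sar1B:H79G lines were at 12.75 and 13.01 there and the Sar1A line at 13.10, above both Sar1B lines.

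Of 16 genes of the COPII coat and ER exit sites, 2 were higher in line 2 and 0 in line 1. That is 12.5% of the list, beside 1.92% of all genes, and both lie in the run of neighbouring genes described below. Mia2, a receptor at ER exit sites that takes part in exporting large cargo, had 10.51, 10.74, 10.68 and 10.81 in line 1 and 11.67, 11.49, 11.62 and 11.59 in line 2 (difference 0.91, standard error 0.07, adjusted p = 1.5e-06, limma). Here line 1 stood apart, below the other lines at 10.96 to 11.70. Preb, also called Sec12, the exchange factor that activates Sar1 at the ER, had 9.78, 9.90, 9.87 and 9.90 in line 1 and 10.57, 10.26, 10.61 and 10.53 in line 2 (difference 0.63, standard error 0.08, adjusted p = 7.0e-05, limma). Its call was lost with quantile normalization. Coat subunits had small differences, with Sec13 at 0.04, Sec31a at 0.21, Sec23b at -0.09 and Sec24d at -0.04. On the list of 38 cargo receptors, SNAREs and COPI subunits 0 genes were called by limma with the minimum fold. Of these 38, 5 passed the adjusted p alone, all higher in line 2, and 15 had an unadjusted p under 0.05. Over all genes a like share, 2112 of 14217, passed the adjusted p alone. Among all probe sets that passed it, 2702 of 3767 were higher in line 2.

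**Figure D3:**
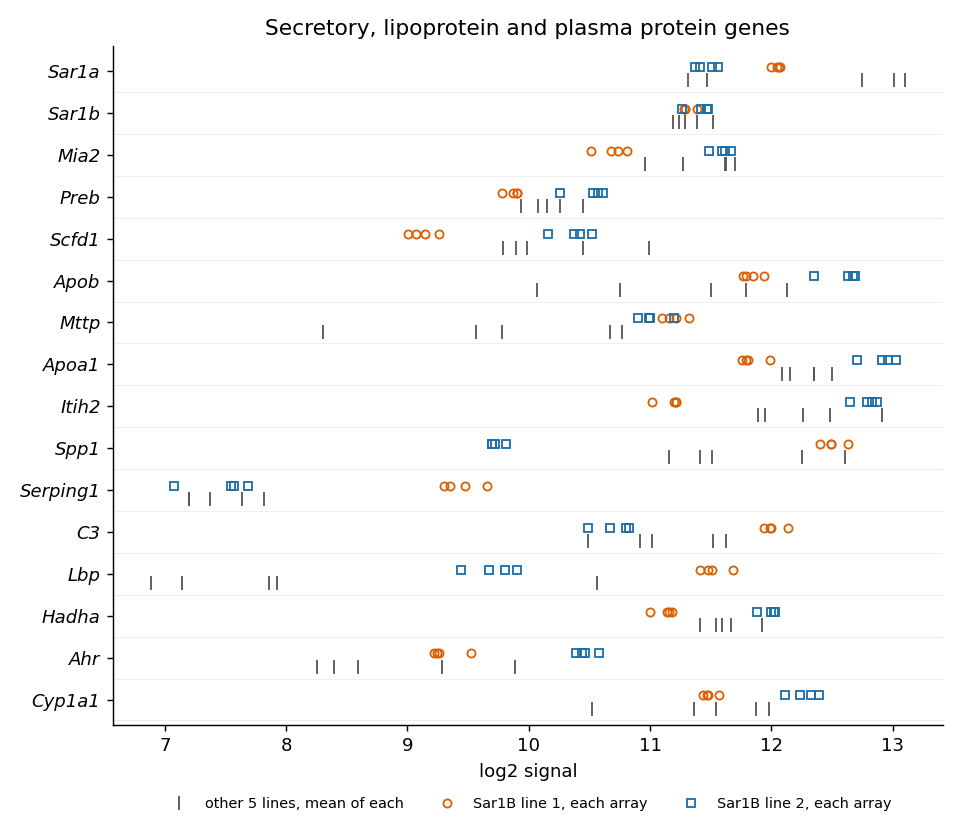
Log2 signal (horizontal axis) of secretory, lipoprotein and plasma protein genes and of Hadha, Ahr and Cyp1a1, with a circle for each array of Sar1B line 1, a square for each array of line 2 and a tick for the mean of each of the other 5 lines. The circles and squares separate in every gene shown except Sar1b and Mttp.

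Both called COPII genes and Apob lie on the same chromosome, and so did a large share of all genes higher in line 2. For 9354 genes with a signal above the median, placed in the order of RefSeq (assembly GRCr8), the running median of the difference over 15 neighbouring genes was taken. It lay between -0.18 and 0.51 in the central 98% of 9059 windows. A run was a stretch of at least 3 genes where it was 0.3 or more in size, a limit chosen after the values were seen, so that the runs are a description without a test. There were 6 runs, and by far the longest went from Cox7a2l to Fbxo33 with 172 genes, of which 159 were higher in line 2 and 74 were called so. These 74 are 48.1% of the 154 called genes higher in line 2. Only placed genes could lie in a run, and 147 of the 154 were placed. The run holds 1.84% of the genes placed. Just outside it the running median was 0.297 at Mta3, beside 0.308 at Cox7a2l inside, and at the other end 0.58 at Fbxo33 and 0.26 at the next gene, Lrfn5. Before the run lay 23 placed genes of its chromosome, from Mtm1 to Mta3. Their median difference was 0.20, with 22 higher in line 2 and 0 called so. The start of the run at Cox7a2l was thus set by the limit of 0.3.

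The run was split at Scfd1 into 2 stretches, a place chosen after the values were seen, so that their contrast is a description without a test. From Cox7a2l to Stxbp6, over 141 genes, the median difference was 0.49 and 49 genes were called, and from Scfd1 to Fbxo33, over 31 genes, it was 0.89 and 25 were called higher in line 2. In the 20 genes that follow, from Lrfn5 to Psma3, the median was -0.02 and 0 genes were called. Some probe sets had not been used, because a brighter one represented their gene. Of these, the 60 with a signal above the median went the same way, with 58 higher in line 2 and a median of 0.56. Dimmer ones were left out of this count, such as those of Ahr (-0.04) and Hadha (0.26 and -0.06). In the other pairs the same 172 genes had median differences of 0.09 between the Sar1B:H79G lines and -0.01 between the control lines.

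The places of the lines differed between the stretches. In the first stretch line 1 was below the median of the other 5 lines by a median of -0.16 and line 2 was above it by 0.30, with line 2 above all other lines for 87 of 141 genes. In the second stretch the medians of both were below it, by -1.12 in line 1 and by -0.29 in line 2. At the start of this stretch line 2 was still above it, from Scfd1 (0.38) to Egln3 (0.02). At the next gene, Eapp, line 2 was below it (-0.62). Line 1 was below all other lines for 27 of the 31 genes of the second stretch, and line 2 was so for 11. Without line 2 replicate 2 the longest run was 111 genes long, from Lrpprc to Adam17, while the median difference of the 172 genes was 0.59 and 88 of them were called higher in line 2.

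**Figure D4:**
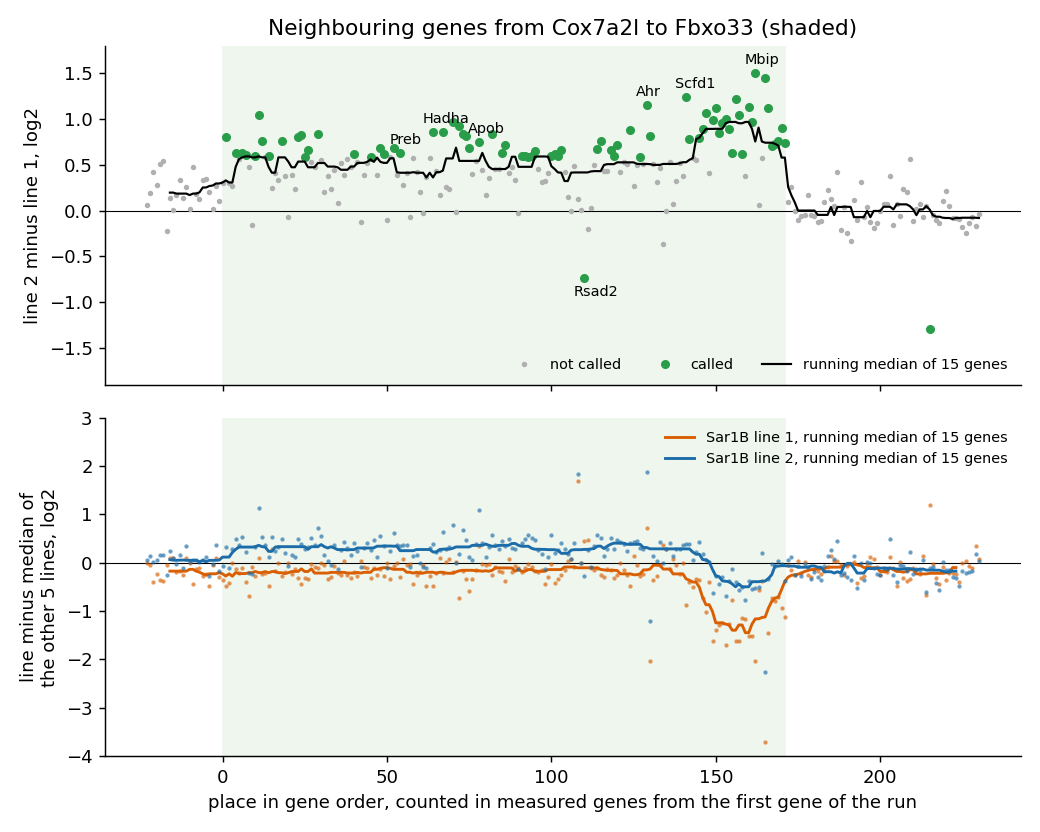
Genes in chromosomal order around the run from Cox7a2l to Fbxo33 (shaded), with the place of each gene counted from the first gene of the run on the horizontal axis. The upper panel plots the log2 difference, line 2 minus line 1, and its running median, which falls to about 0 after Fbxo33. The median difference was 0.49 in the first stretch and 0.89 in the second, which starts at Scfd1. The lower panel plots each Sar1B line minus the median of the other 5 lines, where line 1 is lowest in the second stretch.

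Members of the run have varied roles. In the second stretch, Mbip, a MAP kinase pathway inhibitor protein, had 8.21, 8.35, 8.23 and 8.69 in line 1 and 9.95, 9.73, 9.85 and 9.99 in line 2, the largest difference of the run (1.51, standard error 0.10, adjusted p = 2.6e-07, limma). Line 2 lay within the other lines (9.45 to 10.70) and line 1 below them. Scfd1, which helps ER and Golgi SNAREs to assemble, was at 9.12 ± 0.11 (SD, n = 4 arrays) in line 1 and 10.36 ± 0.15 (SD, n = 4 arrays) in line 2, with no overlap of arrays. Sptssa, a small subunit of serine palmitoyltransferase, had a difference of 1.12, Srp54a, of the signal recognition particle, of 0.89, the TRAPP subunit Trappc6b of 0.73 and the proteasome subunit Psma6 of 0.62.

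In the first stretch lay Apob, Preb, Hadha, Pdia6, Lpin1 and Ahr. Hadha, of the mitochondrial enzyme complex of fatty acid oxidation, was at 11.12 ± 0.08 (SD, n = 4 arrays) in line 1 and 11.98 ± 0.07 in line 2, without overlap of arrays (difference 0.86, adjusted p = 7.3e-07, limma), and its partner Hadhb had a difference of 0.57, just under the minimum fold. The dimmer probe sets of Hadha had differences of 0.26 and -0.06, and with the mean of all the call was lost. Pdia6, a protein disulfide isomerase of the ER, and Lpin1, a phosphatidate phosphatase, had differences of 0.66 and 0.59, the latter lost under 5 of the alternatives. Rsad2, the interferon-induced antiviral enzyme viperin, was the exception in the run, the single gene there that was called higher in line 1. It gave 8.66, 8.75, 8.78 and 8.84 in line 1 and 8.09, 7.99, 7.95 and 8.08 in line 2 (difference -0.73, standard error 0.06, adjusted p = 2.7e-06, limma).

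Ahr, the aryl hydrocarbon receptor, had 9.25, 9.26, 9.22 and 9.52 in line 1 and 10.46, 10.58, 10.44 and 10.39 in line 2. Line 2 lay above all other lines (8.26 to 9.89). The difference of 1.16 (standard error 0.07, adjusted p = 2.6e-07, limma) was not seen with a second, dimmer probe set (-0.04). Cyp1a1, its best known target and not a gene of the run, was higher in line 2 by 0.78 (standard error 0.07, adjusted p = 3.9e-06, limma), at 11.44, 11.48, 11.47 and 11.57 in line 1 and 12.33, 12.11, 12.39 and 12.24 in line 2. The other lines reached from 10.52 to 11.98 for Cyp1a1. Both control lines were above line 1 for Cyp1a1 (11.87 and 11.98) but below it for Ahr (8.40 and 8.26). Whether the differences of Ahr and Cyp1a1 are linked was not tested.

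The other 5 runs were short. From C20h22orf15 to Jmjd1c, 28 genes had a median difference of 0.35, with 6 called higher in line 2, among them the cell cycle kinase Cdk1 (0.65) and the glutathione transferase Gstt3 (0.71). From Prkcd to Ercc6, 23 genes had a median of 0.38 and 3 were called, and from Tpm4 to Plvap, 14 genes had 0.36 and 0 were called by limma, with 11 at an unadjusted p under 0.05. From Tysnd1 to Man1a1, 17 of 19 genes were lower in line 2 and 2 were higher, with a median of -0.34, and from Hsf2 to Pkib, all 3 genes were lower, with a median of -0.42. In both of these runs 0 genes were called by limma, and 13 of the 19 and all 3 had an unadjusted p under 0.05. The other pairs of lines had medians away from 0 over some of these runs as well. From Prkcd to Ercc6 the median was 0.39 for control line 2 minus line 1 and -0.20 for Sar1B:H79G line 2 minus line 1, and from Tpm4 to Plvap it was 0.26 and -0.23. Over the other 3 short runs the medians lay between -0.17 and -0.12 for the control pair and between -0.02 and 0.11 for the Sar1B:H79G pair.

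Higher in line 2 outside the longest run were 80 genes. Sccpdh, a putative dehydrogenase, had 10.25, 10.23, 10.27 and 10.23 in line 1 and 11.70, 11.37, 11.64 and 11.67 in line 2 (difference 1.35, standard error 0.07, adjusted p = 4.8e-08, limma), and line 1 was below all other lines (10.52 to 11.88). Ly75, an endocytic receptor, differed by 1.34 and varied among the other lines from 6.97 to 9.57. Fabp7, a fatty acid binding protein of fetal tissue, differed by 1.21 and Igsf1, an immunoglobulin superfamily membrane protein, by 1.09. Myh1, a myosin heavy chain, differed by 1.16 on its brightest probe set, whereas 4 dimmer ones had differences from -0.41 to -0.08.

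Metabolic and stress lists held few calls each, to be set beside the 1.92% of all genes that were called. Of 27 genes of the NRF2 and glutathione list, 3 were higher in line 1 and 0 in line 2, namely the glutathione peroxidase Gpx2 (12.23 ± 0.11 in line 1 and 10.94 ± 0.19 in line 2, SD, n = 4 arrays each), the sulfiredoxin Srxn1 (-0.77) and the cystine transporter Slc7a11 (-0.71). The median of that list was -0.14, with 22 of the 27 genes below 0, and 11.1% of it was called. With the adjusted p alone, 10 of the 27 were higher in line 1 and 2 in line 2, and 15 had an unadjusted p under 0.05. The stress-induced factor Ddit3 was the single call of 26 genes of the integrated stress response (-0.74), and of 27 ER chaperones and unfolded protein response genes Pdia6 and Sdf2l1 (0.65) were higher in line 2. Of 40 cytochrome P450 and flavin monooxygenase genes 2 were higher in line 2 (Cyp1a1 and Cyp2c6v1) and 1 in line 1, Cyp17a1, the steroid 17-hydroxylase, with a difference of -1.55. On 17 cholesterol synthesis genes Tm7sf2 alone was called (0.59), and this call was lost under 8 of the alternatives. The median difference of that list was 0.18, against 0.0017 for all genes, and 3 of the 17 genes had a difference below 0. With the adjusted p alone, 4 of the 17 were higher in line 2 and 1 in line 1, and 10 had an unadjusted p under 0.05. The lists of sterol control and uptake (19 genes), fatty acid synthesis (24), imprinted genes (24), oncofetal markers (31), glucocorticoid response (17) and Rab GTPases (36) held 0 calls by limma with the minimum fold, while 1 to 12 members of each passed the adjusted p alone and 3 to 14 had an unadjusted p under 0.05.

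**Figure D5:**
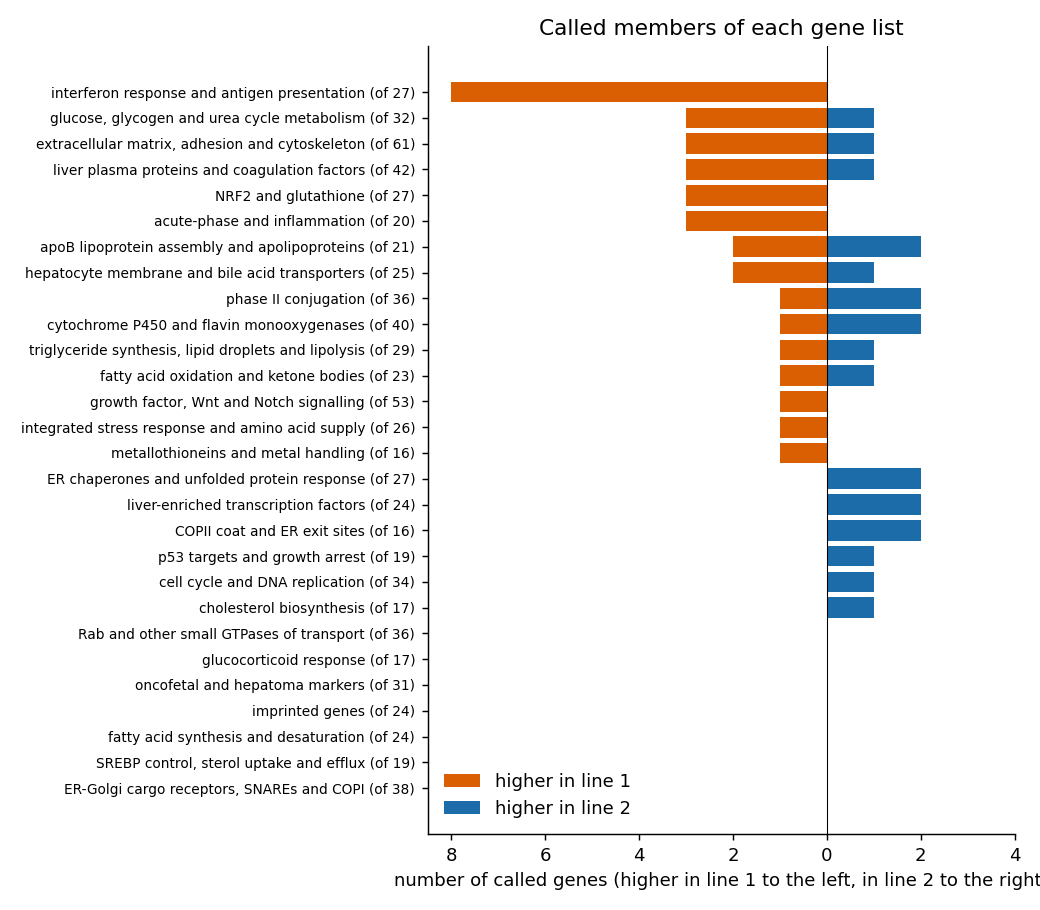
Number of called genes on each of 28 gene lists (horizontal axis), higher in Sar1B line 1 to the left and higher in line 2 to the right, with the number of measured genes after each name. The interferon list has 8 calls, all to the left, and 7 lists have none.

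Few markers of cell types were called. Of 8 hepatocyte markers Apob alone was called, and the median difference was 0.13. With the adjusted p alone, 2 of the 8 were higher in line 2 and 0 in line 1, and 4 had an unadjusted p under 0.05. None of 8 fibroblast, 7 macrophage, 7 endothelial or 4 erythroid markers was called by limma, 0 of them passed the adjusted p alone, and 1 of them, on the erythroid list, had an unadjusted p under 0.05. Their differences lay between -0.10 and 0.09 for macrophage markers and between -0.08 and 0.05 for fibroblast markers. Mpeg1, a pore-forming protein known from macrophages, was nonetheless higher in line 1, with 10.85, 10.84, 10.90 and 10.88 against 9.31, 8.99, 9.34 and 9.31 in line 2, while the mean log2 signal over the 7 macrophage markers was 7.45 to 7.51 on the line 1 arrays and 7.45 to 7.50 on the line 2 arrays. Of 6 cholangiocyte markers Spp1 was called, while Krt19 (0.02) and Krt7 (-0.05) were not. With the adjusted p alone, 2 of the 6 were higher in line 1, the other being Epcam (-0.22, adjusted p = 0.0424, limma). In bulk RNA, fewer cells with a transcript and less of it per cell cannot be told apart.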

How the data were processed

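Loess and MAS5 normalization was done by the authors in CARMAweb (version not given in the sources used here), and the deposited values are log2 signals per probe set and array, with the log base inferred from their range. The 57 array controls were left out. Line 2 minus line 1 was fitted over 31042 probe sets with limma 3.58.1 (R 4.3.3, 6 residual degrees of freedom) and Benjamini-Hochberg adjustment, and the fit was tested on simulated data. In the platform annotation 20826 probe sets had 1 symbol, 436 several and 9780 none, and 14167 of 14217 genes matched RefSeq. Named genes are the 15 largest differences in each direction among called genes whose arrays did not overlap and whose higher mean exceeded the median of all probe sets (8.13), up to 3 called members of each list, and Sar1a, Sar1b, Apob and Mttp. Others were chosen after their values were seen. The comparison, rules and gene lists, written from textbook knowledge, were chosen with earlier results of these data known. Alternatives were other moderation, a test against a minimum fold of 1.2, fits with more lines, quantile and median scaling, a filter on dim probe sets, other thresholds, gene means over probe sets and each array left out in turn.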

Additional observations from a re-analysis of the deposited data

Results flagged for a closer look

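In 11 of 142 sets of 4 arrays of the named genes, 1 array lay far from the other arrays of its line by Dixon's criterion, which chance meets in about 1 of 20 sets. Line 1 replicate 4 was the highest array for Rtp4 (9.77), Ahr (9.52), Slc16a7, a monocarboxylate transporter (8.92), and Sar1b (11.39). Line 2 replicate 2, whose profile stood apart, was the lowest for Isg15 (9.97), Mpeg1 (8.99), Cidec, a lipid droplet protein (8.50), and Slc22a7, an organic anion transporter (9.67). The others were Itih2 in line 1 replicate 1 (11.02), Myh1 in line 2 replicate 4 (12.004) and Cyp17a1 in line 2 replicate 3 (6.94), each the lowest of its line. The gap to the nearest array was 0.78 for Rtp4 and at most 0.34 for the other genes. The called genes among them were higher in the same line on every array, and Sar1b was not called.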

How the results depend on the processing

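The number of called probe sets was 379 to 444 under the alternatives that kept a minimum fold and all arrays, and 427 to 535 with single arrays left out. With an adjusted p alone it was 3767, and the number of genes was 2112 instead of 273. With single arrays left out, genes numbered 260 to 322 and probe sets with at least a 2-fold difference 70 to 80. The interferon list had 7 to 8 called members with single arrays left out and 14 with an adjusted p alone. The alternatives for the runs were chosen after seeing the data: the longest run held 104 genes with a running median over 9 genes, 66 with a minimum of 0.4 and 111 to 173 with single arrays left out. Of 68 called named genes, 50 kept their call under all 18 settings and 17 lost it under at least 1, and none changed direction. Cyp17a1, Gys2 and Lcn2 had no value with only probe sets above the median, and Cyp17a1 kept its call under the other 17. Tm7sf2 and Prox1 lost it most often, under 8 and 7 settings, and Lcn2 and Gys2 did so without line 2 replicate 2. Cidec lost it without line 1 replicate 4, and Ghr without either of these arrays. The causes were not tested. No paired analysis was possible because the replicate numbers were given in accession order and pair no arrays. All arrays of a line come from 1 clone, depth is unknown for arrays, and the number of arrays limits the precision.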

Other observations

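Some further single genes are given here that were picked because they were called higher in line 1, so that their direction was set by the choice and says nothing of a group. They were the small heat shock proteins Hspb1 (difference -1.14, line 2 minus line 1, standard error 0.06) and Hspb8 (-0.71, standard error 0.08) and Zfand2a, a zinc finger protein induced by proteotoxic stress (-0.93, standard error 0.08). Both Sar1B:H79G lines had still higher Hspb1 signals than line 1 (13.59 and 13.66 against 12.69). Ndrg1, Adm and P4ha1, picked in the same way and each known to rise under hypoxia, had differences of -1.37, -0.87 and -0.71. For Ndrg1 and P4ha1 line 2 lay below all other lines, at 9.86 against 10.48 to 11.92 and at 9.83 against 10.08 to 11.17.

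Some genes known from intestinal epithelium were likewise picked one by one among those called, and not all had the same direction. Pls1, a plastin of the intestinal brush border, was higher in line 2, with a difference of 0.64 (standard error 0.07). Fabp2, the intestinal fatty acid binding protein, had a difference of -0.90 (standard error 0.09), the galectin Lgals4 of -1.04 (standard error 0.08) and the brush border cadherin Cdhr5 of -0.60 (standard error 0.07). For Cdhr5 line 1 lay above all other lines (11.20 against 8.97 to 10.73), whereas Lgals4 and Fabp2 reached levels as high in another line (10.27 and 9.16 as the highest means of the other 5).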
